A study of Mus musculus with 12 samples.

Results

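Tumours of a mouse model (425-ICC) of intrahepatic cholangiocarcinoma, which arises from bile ducts within the liver, were profiled by bulk RNA sequencing in 4 groups of 3 samples after 8 days of treatment. Control tumours received IgG. GC, an abbreviation that the labels do not spell out, is taken here to be gemcitabine with cisplatin. ICB stands for dual immune checkpoint blockade, against CTLA-4 and PD1 by the title of the series, and Combination for GC with dual ICB. All 12 samples, the whole series, enter a layout in which each treatment is present or absent, so it can be asked whether the response to both equals the sum of the responses to each alone. The quantity described is the interaction: the difference Combination minus ICB, less the difference GC minus Control, computed on log2(FPKM + 1). FPKM is a read level scaled to transcript length and library total. A gene at 0 on this scale sits where the separate differences add up, which corresponds to multiplying fold changes in FPKM + 1. A positive value lies above that expectation and a negative value below it. Of 24421 symbols, the 12765 with a mean of at least 1 FPKM over the 12 libraries were tested. Means just around that floor were 0.999932 FPKM for Gpbar1, which was not tested, and 1.00031 FPKM for Hhipl1, which was.

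Gemcitabine is a nucleoside analogue that blocks DNA synthesis and cisplatin crosslinks DNA. Antibodies to CTLA-4 and PD-1 release brakes on T cells, and PD-L1, encoded by Cd274, is the ligand through which tumour and myeloid cells engage PD-1. Intrahepatic cholangiocarcinoma is known for a dense fibrous stroma and grows against hepatocytes, whose abundant secreted protein and metabolic enzyme transcripts are easily seen in a bulk tumour sample. How the tumours were implanted and whether the samples are separate animals are not given in the sources used here, so the p-values reflect only how these samples vary, which may be technical. In bulk samples, fewer cells of a type and less RNA per cell cannot be told apart.

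The Combination libraries stood apart before any gene was tested. Spearman correlations over tested genes between libraries of 1 group were 0.908 to 0.972 in Control, GC and ICB, but 0.614 between Combination replicates 1 and 2, 0.777 between replicates 1 and 3 and 0.86 between replicates 2 and 3. Hepatocyte markers took 0.0219 to 0.0387% of total FPKM in Control, while GC held 0.212 to 1.6% and ICB 0.148 to 0.577%; Combination replicates 1, 2 and 3 held 0.823, 20.7 and 8.36%. A list of 15 small intestinal genes averaged 7.05 on log2(FPKM + 1) in Combination replicate 1 and at most 2.18 in any other library, and a list of 12 skeletal muscle genes averaged 6.42 in Control replicate 2 and 7.97 in GC replicate 2 and at most 0.71 elsewhere. Total FPKM ran from 547146 to 660067 per library. Read counts could not be recovered, so the sequencing depth is unknown. Biliary markers differed in level. Sox9, a factor of bile duct and progenitor cells, was 43.5 to 91.9 FPKM in Control, while Krt19, a keratin of bile duct epithelium, was listed at 0 in Control replicates 2 and 3 and was 48.3 FPKM at most, in Combination replicate 1.

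**Figure D1:**
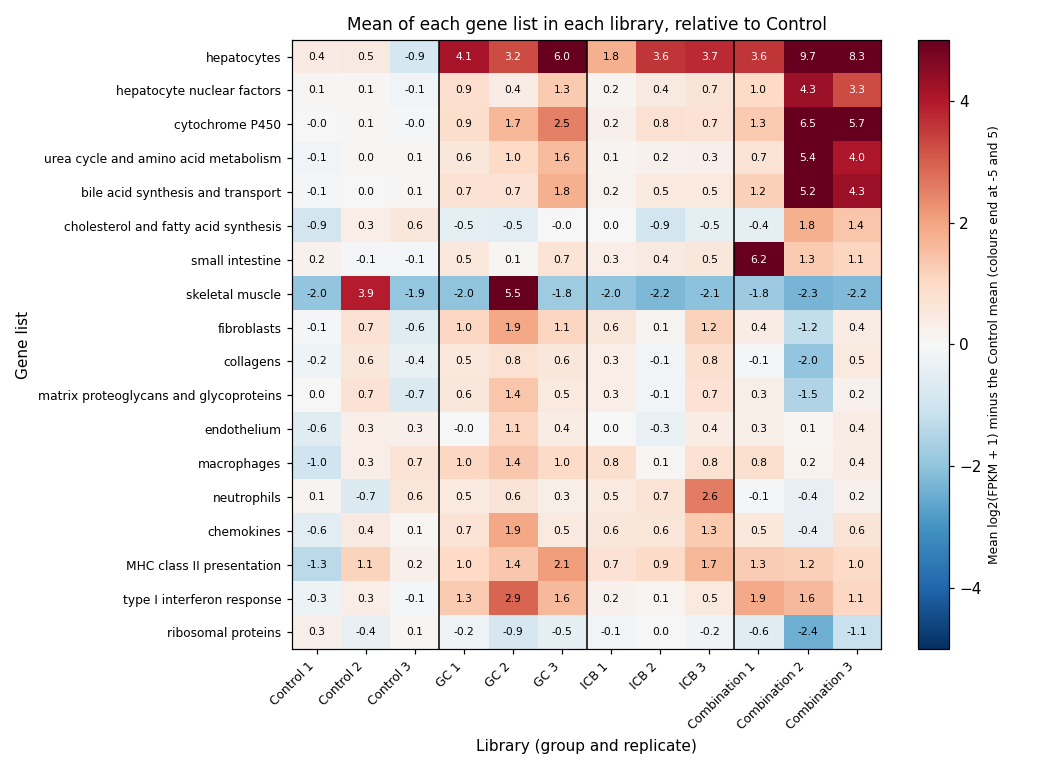
Mean log2(FPKM + 1) of the tested members of 18 gene lists (rows) in each of the 12 libraries (columns, by group and replicate), less the mean of the 3 Control libraries; colours end at -5 and 5. Hepatocyte and liver metabolic lists are highest in Combination replicates 2 and 3, the small intestine list in Combination replicate 1, the skeletal muscle list in Control replicate 2 and GC replicate 2, and fibroblast and collagen lists are lowest in Combination replicate 2.

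The treatments together exceeded the additive expectation for 2 genes of 12765 (0.0157%) at an adjusted p under 0.05 (limma, Benjamini-Hochberg): Abcg5, a subunit of the liver and gut sterol exporter, and Cyp2b10, a drug-inducible cytochrome P450. No gene (0%) lay below it at that threshold. Both genes above it passed the floor of 1 FPKM only through Combination. Before adjustment, 356 genes (2.79%) were above and 677 (5.3%) below at p under 0.05, 8.09% in all. Positive estimates were found for 31.8% of genes and negative ones for 68.2%, with a median over all tested genes of -0.26 and quartiles of -0.66 and 0.12. Centring depends on scaling: with TMM scaling the median was 0.02 and the split at unadjusted p under 0.05 was 664 above to 596 below. List medians below are therefore read against -0.26, and counts of positive or negative members against 31.8% and 68.2%. On plain FPKM, where the differences themselves are added, 40.4% of genes lay above the expectation, and 90.5% had the same sign on both scales.

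The counts changed with single libraries. Without Combination replicate 1 there were 592 genes above (4.69% of those tested) and 273 below (2.16%). Leaving out any one of Control replicates 1, 2 and 3, GC replicates 1 and 2 and ICB replicates 2 and 3 gave 0 above, leaving out Combination replicate 2 gave 1, and leaving out Combination replicate 3, GC replicate 3 or ICB replicate 1 gave 2. Abcg5 and Cyp2b10 each passed in 3 of these 12 fits. For the underlying steps, Combination differed from Control in 453 genes upward (3.55%) and 51 downward (0.4%), GC from Control in 1 gene upward (0.00783%), and ICB from Control in none (0%).

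Abcg5 and Abcg8 encode the subunits of one transporter, which moves cholesterol and plant sterols out of hepatocytes into bile and out of enterocytes into the gut lumen. Abcg5 was listed at 0 FPKM in all 3 Control libraries, at 0.205, 0.116 and 0.995 in GC, and at 0, 0.0674 and 0.132 in ICB. In Combination replicates 1, 2 and 3 it was 18.8, 15.98 and 16.6 FPKM. All 3 Combination libraries, the intestine-rich and the liver-rich ones alike, held nearly the same level, far above the other 9. Its interaction was 3.61 ± 0.41 (SE, n = 3 per group, limma adjusted p = 0.024), since 0.48 FPKM was expected from the single treatments. Abcg8 followed the same order, with 0 in Control, at most 0.532 FPKM in GC and 0.0898 in ICB, and 8.63, 7.28 and 9.32 FPKM in the Combination replicates. The interaction of Abcg8, 2.79 ± 0.39, just missed the threshold (limma adjusted p = 0.0535).

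The pair is shown by its shared promoter because the transcripts leave it in opposite directions and had the same pattern over the libraries. Abcg5 lies on the minus strand of chromosome 17 (84658234 to 84683011, GENCODE M21 on GRCm38) and Abcg8 on the plus strand (84676302 to 84700333). The annotated spans overlap, and whether counting used the strand is not given in the sources used here, so reads of the overlap cannot be told apart. Between the RefSeq start sites (84683011 for Abcg5, 84683121 for Abcg8; GRCm38.p6) lie 109 bases, chr17:84683012-84683120, read on the plus strand from 5′ to 3′, with capitals marking matches to GATAA on the minus strand.
Abcg5-Abcg8: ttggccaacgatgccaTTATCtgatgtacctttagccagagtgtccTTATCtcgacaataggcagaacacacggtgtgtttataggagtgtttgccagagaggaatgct
GATAA, the core letters that GATA factors of gut and liver bind, was searched on both strands. It occurs 2 times, in each case on the minus strand, 17 and 47 bases from the Abcg5 start. Among 32817 promoter windows of 109 bases, 9.37% hold at least 1 such match and 0.789% at least 2. AGGTCA, a core motif of nuclear receptors, and GTTAAT, part of the HNF1 motif, had no match on either strand; 6.39% and 2.73% of the windows hold them. The motifs were chosen with the sequence in view, and a match is a description of letters only.

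Cyp2b10, a target of the xenobiotic receptor CAR that oxidises drugs, was listed at 0 FPKM in 8 of the 9 other libraries and at 0.081 in GC replicate 2. It was 26.2, 63.6 and 14.7 FPKM in Combination replicates 1, 2 and 3. Combination did not overlap the other groups, which overlapped each other, and the interaction was 4.88 ± 0.60 (SE, n = 3 per group, limma adjusted p = 0.0278). Cyp2b10 (chromosome 7, 25897620 to 25926624) has close relatives within its family, so part of its reads may be shared with them. Nr1i3, the gene of CAR itself, reached 2.68, 38.5 and 33.2 FPKM in the Combination replicates and at most 1.33 elsewhere, with an interaction of 2.78 ± 1.03 (limma adjusted p = 0.541).

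The 8 genes of next smallest p above the expectation had adjusted p from 0.0535 to 0.111 and did not pass. Cyp4f14, a fatty acid and leukotriene hydroxylase, was 51.0, 109.6 and 48.8 FPKM in Combination, at most 5.89 in GC and 0.41 in ICB, and 0 in Control (interaction 4.43 ± 0.71). Ces2a, a carboxylesterase of liver and gut, was 21.9, 102.7 and 45.9 FPKM in Combination, at most 3.202 in GC, and 0 in Control and ICB (4.49 ± 0.79). Akr1c19, an aldo-keto reductase, was 5.82, 11.6 and 13.0 FPKM in Combination and at most 0.303 elsewhere (3.23 ± 0.47). These are enzymes of drug and lipid handling; the next are proteins of the apical or bile-facing cell surface. Mgam, a brush border maltase-glucoamylase, was 11.3, 10.9 and 7.16 FPKM in Combination and at most 0.905 elsewhere (2.61 ± 0.41). Dpp4, a membrane peptidase that trims incretin hormones and chemokines, was 11.9, 18.7 and 6.87 FPKM in Combination and at most 0.912 elsewhere (2.92 ± 0.51). Entpd8, an ectonucleotidase, was 9.44, 23.6 and 10.9 FPKM in Combination and at most 1.19 elsewhere (3.41 ± 0.54). The list ends with Abcg8, described above, and H2-Q1, a gene of the non-classical MHC class I Q region, at 17.5, 27.7 and 15.8 FPKM in Combination and at most 1.23 elsewhere (3.38 ± 0.54). Akr1c19, Ces2a and H2-Q1 have near-identical relatives, and their values are uncertain to that extent.

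In all 10 of these genes the 3 Combination libraries lay above the other 9 libraries, and the sign was the same on plain FPKM. Over all tested genes 2.89% had that order, but these genes were chosen by their p and all passed the floor through Combination, so nothing is read from the comparison. The GC difference was above 0 in 10 of 10 and the ICB difference in 6. Combination replicates 1, 2 and 3 are also the libraries richest in intestinal or hepatocyte transcripts. The part of tissue content in these genes was not tested, and the fits that follow cannot separate it from treatment. The hepatocyte list averaged 11.36 and 9.96 on log2(FPKM + 1) in Combination replicates 2 and 3 and at most 7.62 in the other groups. The small intestine list was by far highest in Combination replicate 1. The same limit holds for such fits given below. In a fit that included the mean of the hepatocyte list, the interaction of Abcg5 was 3.62 (limma adjusted p = 0.00502) and the interaction of Cyp2b10 was 4.90 (limma adjusted p = 0.00537). With hepatocyte, small intestine and skeletal muscle list means as covariates they were 3.30 (limma adjusted p = 0.00159) and 4.68 (limma adjusted p = 0.00473).

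**Figure D2:**
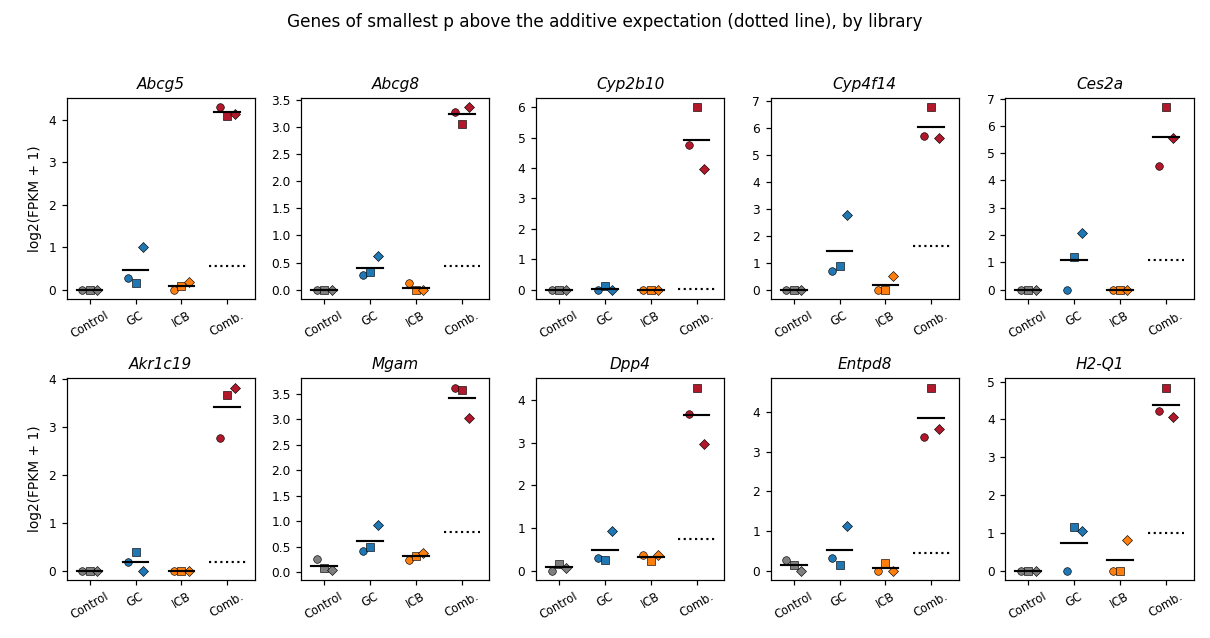
Levels on log2(FPKM + 1) of the 10 genes of smallest p above the additive expectation, by group (circle, square and diamond are replicates 1, 2 and 3; solid bar, group mean; dotted line, the sum of single-treatment differences added to the Control mean). The Combination points of all 10 genes lie above the dotted line and above the 9 other libraries, and Abcg5 varies least, from 15.98 to 18.8 FPKM.

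Further genes of lipid, glutathione and epithelial function lay above the sum without being listed at 0 in every Control library. Mttp, the lipid transfer protein that loads chylomicrons and very low density lipoprotein, was 2.11, 2.54 and 3.35 FPKM in Control, 4.21, 2.16 and 8.81 in GC, and 2.65, 2.62 and 3.80 in ICB. It reached 75.7, 72.8 and 33.4 FPKM in Combination, where 4.98 was expected, an interaction of 3.28 ± 0.58 (limma adjusted p = 0.114). Gclm, the modifier subunit of glutamate-cysteine ligase, which makes the glutathione precursor, was 8.82 to 9.84 FPKM in Control, 11.8 to 14.9 under GC and 6.35 to 9.27 under ICB, and 24.5, 56.8 and 36.8 in Combination (interaction 1.62 ± 0.40, limma adjusted p = 0.325). Slc31a1, a copper transporter through which cisplatin can enter cells, was 7.09 to 13.7 FPKM in the other 9 libraries and 23.5, 37.2 and 23.5 in Combination (1.21 ± 0.39, limma adjusted p = 0.476). Apol9b, an apolipoprotein L gene induced by interferon, was 4.48 to 11.1 FPKM in the other 9 libraries and 23.02, 54.2 and 25.3 in Combination (1.96 ± 0.43, limma adjusted p = 0.245). Pigr, the receptor that carries IgA across epithelium, was at most 9.01 FPKM elsewhere and 86.3, 442.1 and 226.3 in Combination (4.22 ± 0.88, limma adjusted p = 0.192). None of these 5 passed the threshold. In each the 3 Combination libraries lay above the other 9, as in 2.89% of all tested genes. All but Mttp were chosen after their values were seen, and Mttp by its small p, so nothing is read from that order. Over 14 genes of platinum transport and detoxification, which include Slc31a1 and Gclm, the median interaction was 0.70, with 9 positive. Of them 5 (35.7%) were above at unadjusted p under 0.05, against 2.79% of all tested genes. The member of highest interaction, Abcc2 (2.81), passed the floor of 1 FPKM only through Combination. Nothing is therefore read from that comparison.

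Liver metabolic lists had the highest medians. Counts for every list are over the members that passed the floor of 1 FPKM, 745 of 846 entries found. The cytochrome P450 list averaged 0.21 to 0.31 on log2(FPKM + 1) in Control. Members of these liver lists such as Cps1, Otc, Cyp7a1 and Abcc2 passed the floor only through Combination. Shares in these lists therefore describe the members, and nothing is read from the comparison with all tested genes. Of 17 cytochrome P450 genes, 14 were positive with a median of 3.06, and 4 (23.5%) were above at unadjusted p under 0.05 against 2.79% of all tested genes. Urea cycle and amino acid metabolism followed with a median of 2.12 over 16 genes (15 positive), bile acid synthesis and transport with 1.99 over 16 (15 positive) and, after the small intestine list (1.70), the hepatocyte nuclear factors with 1.67 over 13 (13 positive). In the 4 genes given next, unlike Abcg5, Combination replicates 2 and 3 were far above replicate 1. Cps1, the first enzyme of the urea cycle, was 2.94, 365.4 and 128.9 FPKM in Combination replicates 1, 2 and 3 and at most 2.54 in the other 9 libraries (4.46 ± 1.72, limma adjusted p = 0.564). Otc, the enzyme of the next step, was 3.02, 121.6 and 47.4 FPKM in Combination and at most 2.08 elsewhere (3.92 ± 1.31, limma adjusted p = 0.476). Cyp7a1, the rate-limiting enzyme of bile acid synthesis, was 0.335, 52.9 and 58.9 FPKM in Combination and at most 1.48 elsewhere (3.50 ± 1.58, limma adjusted p = 0.609). Abcc2, the pump for conjugated bilirubin and drugs, was 3.93, 34.99 and 25.03 FPKM in Combination and at most 1.70 elsewhere (2.81 ± 0.87, limma adjusted p = 0.465).

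Those genes gained their calls when the intestine-rich library was left out. Without Combination replicate 1 the median of the cytochrome P450 list was 4.51 with 12 of 17 called above, that of the urea cycle list 3.999 with 12 of 16 called, and that of the bile acid list 3.71 with 12 of 14 called, against 4.69% of all tested genes. Nothing is read from these counts, since members such as Cps1 and Cyp7a1 passed the floor only through Combination. The interaction of Cyp7a1 was then 5.30 ± 0.47 (limma adjusted p = 0.000157) and that of Cps1 6.39 ± 0.62 (limma adjusted p = 0.000263). The hepatocyte share of total FPKM in the 2 Combination libraries left is 20.7 and 8.36%, against at most 1.6% in any library of the other groups.

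An exception among the P450 genes was Cyp1b1, an enzyme of stromal rather than liver cells. It was 0.513 to 2.10 FPKM in Control, 2.86, 11.3 and 3.87 in GC, 4.11, 1.36 and 4.64 in ICB, and 1.36, 0.246 and 1.07 in Combination (interaction -2.72 ± 0.71, limma adjusted p = 0.335). Every Combination library was below every GC and ICB library, the nearest being Combination replicate 1 at 1.361 FPKM against ICB replicate 2 at 1.362.

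Hepatocyte markers went both ways, and their direction depended on the scale. Several had higher means than Control with each treatment alone, so the sum of log differences was high. Fgb, fibrinogen beta, was 0 to 5.55 FPKM in Control, 28.5 to 619.2 under GC, 62.3 to 252.9 under ICB, and 30.03, 3260 and 1155 in Combination, with an interaction of -3.88 ± 2.24 (limma adjusted p = 0.657). Hpx, the haem-binding hemopexin, behaved in the same way with -3.79 ± 2.03 (limma adjusted p = 0.638). Alb was 2.95 to 35.2 FPKM in Control, 173.9 to 892.6 under GC, 41.7 to 369.3 under ICB, and 217.4, 45398.5 and 16866.5 in Combination, and its interaction was 0.31 ± 2.39 (limma adjusted p = 0.969). Apob, the scaffold of liver and gut lipoproteins, was at most 8.81 FPKM elsewhere and 18.0, 172.9 and 70.8 in Combination, an interaction of 2.46 ± 0.97 (limma adjusted p = 0.568). The 20 markers had 9 positive and 11 negative estimates with a median of -0.41, whereas all 20 lay above the expectation on plain FPKM. Without Combination replicate 1 the log-scale median was 1.66.

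Lipid synthesis differed from the other liver lists because the single-treatment differences were slightly negative. Over 19 genes of cholesterol and fatty acid synthesis, the median difference from Control was -0.29 for GC, -0.37 for ICB and 0.89 for Combination, and the median interaction was 1.54. Of these genes 18 were positive, and 8 (42.1%) were above at unadjusted p under 0.05 against 2.79% of all tested genes, and none was called after adjustment. Fasn, fatty acid synthase, was 10.1, 31.9 and 21.8 FPKM in Control, 13.7 to 16.6 under GC, 7.42 to 17.6 under ICB, and 16.8, 103.6 and 56.6 in Combination (2.35 ± 0.83, limma adjusted p = 0.5). Scd1, which desaturates fatty acids, was 19.6 to 41.1 FPKM in the other 9 libraries and 20.3, 2018 and 910.6 in Combination (3.65 ± 1.74, limma adjusted p = 0.611). For Scd1 and Fasn, Combination replicate 1 lay within the range of the 9 other libraries and replicates 2 and 3 above it.

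Small intestinal genes were high in 1 library. All 15 tested members of 17 were positive, where 31.8% of all tested genes were, with a median of 1.70. Without Combination replicate 1 the median was -0.23 over the 6 members still tested. The other members passed the floor of 1 FPKM only through that library, so nothing is read from the count. Fabp2, the intestinal fatty acid binding protein, was 1779, 70.3 and 31.0 FPKM in Combination replicates 1, 2 and 3 and at most 5.84 elsewhere (5.11 ± 1.61, limma adjusted p = 0.468). In Fabp2 all 3 Combination libraries were thus above the other 9. Rbp2, an intestinal retinol carrier, was 1051 FPKM in replicate 1 and 2.43 and 8.85 in replicates 2 and 3, below the 9.002 to 18.3 of the other 9 libraries.

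In the opposite direction no gene passed the threshold, and Cygb had the smallest p. Cygb encodes cytoglobin, a haem protein of hepatic stellate cells and fibroblasts (chromosome 11, 116645595 to 116654313). It was 6.37, 5.20 and 3.30 FPKM in Control, 35.6, 35.1 and 46.4 in GC, 12.2, 10.1 and 22.4 in ICB, and 9.61, 7.68 and 13.4 in Combination. GC alone and ICB alone were each above Control without overlap, while Combination was below every GC library and overlapped ICB. Cygb was the only gene called for GC against Control (2.77 ± 0.33, limma adjusted p = 0.0361), and it was lower in Combination than in GC (-1.86, limma adjusted p = 0.0291), as were 0.0235% of tested genes, with 0.642% higher. From the single treatments 102.0 FPKM was expected on the log scale and 49.0 on plain FPKM. The interaction was -3.23 ± 0.46 (SE, n = 3 per group, limma adjusted p = 0.0535). When the hepatocyte list mean entered the fit, the interaction of Cygb was -3.22 (limma adjusted p = 0.00887).

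Several secreted, secretory or signalling proteins followed with the same order of group means. Wnt4, a secreted Wnt ligand, was 2.00, 0.0997 and 0.422 FPKM in Control, 10.1, 12.7 and 18.5 in GC, 2.75, 2.09 and 7.86 in ICB, and 1.35, 2.33 and 3.37 in Combination (-3.63 ± 0.67, limma adjusted p = 0.121). Fam46a, a poly(A) polymerase that stabilises transcripts of secreted proteins such as collagen, was 2.18 to 3.32 FPKM in Control, 9.91 to 16.7 under GC, 6.52 to 13.4 under ICB, and 2.88, 4.50 and 5.48 in Combination (-2.74 ± 0.44, limma adjusted p = 0.0749). Cpxm1, a secreted carboxypeptidase-like protein, was 1.68 to 11.3 FPKM in Control, 37.3, 106.5 and 51.5 in GC, 9.80 to 24.5 under ICB, and 12.5, 7.09 and 10.9 in Combination (-3.96 ± 0.79, limma adjusted p = 0.183). In Fam46a Combination was also below every ICB library, and in Wnt4 and Cpxm1 it overlapped ICB. Gas1, a hedgehog co-receptor, had an interaction of -2.25 ± 0.46 (limma adjusted p = 0.192) and Creb3l1, a membrane-bound factor for collagen secretion, one of -2.90 ± 0.63 (limma adjusted p = 0.22).

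Lmcd1, Rasl11a, the non-coding RNA Hotairm1 and Rps27rt complete the 10 genes, with adjusted p up to 0.22. In all 10, GC lay above Control without overlap (18.6% of all tested genes) and Combination lay below GC without overlap (14.2%). ICB lay above Control without overlap in 6 of 10 (4.65%). Combination overlapped Control in 9 of 10 and lay below all 9 other libraries in 0 (2.29%). The choice by small p favours such orders, so these counts describe the genes and nothing is read from them. Rps27rt is uncertain: it was 7345, 4387 and 5320 FPKM in GC and 8.70 to 50.2 in Combination, while Rps27, its near-identical parent gene, was 16.1 to 18.9 under GC and 1154 to 4473 in Combination. ICB replicate 1 was like GC, with Rps27rt at 8039 FPKM and Rps27 at 17.1. In ICB replicates 2 and 3 Rps27rt was 69.5 and 87.5 FPKM and Rps27 was 9018 and 7993. The copies were thus high in different libraries, also within ICB, and their reads cannot be told apart.

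**Figure D3:**
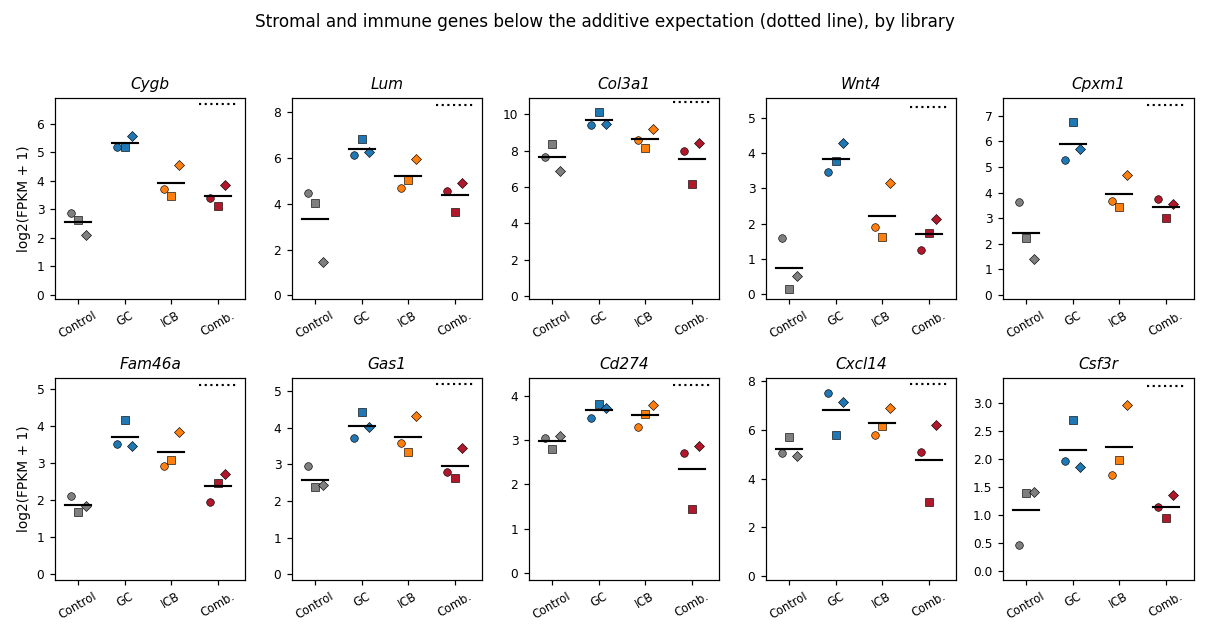
Levels on log2(FPKM + 1) of 10 stromal and immune genes below the additive expectation, by group (circle, square and diamond are replicates 1, 2 and 3; solid bar, group mean; dotted line, additive expectation); Cygb, Wnt4, Cpxm1, Fam46a and Gas1 are of the smallest p in that direction and the rest are members of lists. The Combination points lie below the dotted line in every panel, and for Cygb they run from 7.68 to 13.4 FPKM where 102.0 was expected.

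Fibroblast genes had the lowest list median. All 18 tested members were negative with a median of -2.05, and 8 of 18 (44.4%) were below at unadjusted p under 0.05 against 5.3% of all tested genes, and none was called after adjustment. The median difference from Control was 1.18 for GC, 0.50 for ICB and -0.43 for Combination. By library, the mean of the list relative to Control was 1.04 to 1.95 under GC, 0.14 to 1.16 under ICB and 0.38, -1.22 and 0.38 in Combination, so the liver-rich replicate 2 was lowest. When the hepatocyte list mean entered the fit, the median was -2.12 for fibroblasts, -1.58 for collagens and -1.775 for chemokines. Lum, lumican of collagen fibres, was 21.4, 15.3 and 1.79 FPKM in Control, 68.6, 111.6 and 74.7 in GC, 24.9, 31.2 and 60.5 in ICB, and 22.4, 11.5 and 28.7 in Combination (-3.92 ± 0.95, limma adjusted p = 0.325). Col3a1, fibrillar collagen III, was 196.6, 326.3 and 117.8 FPKM in Control, 683.5, 1131 and 698.6 in GC, 383.1, 279.8 and 577.8 in ICB, and 252.9, 71.8 and 335.8 in Combination (-3.16 ± 0.80, limma adjusted p = 0.325). Col3a1 in Combination fell within or below the Control range in replicates 1 and 2 and just above it in replicate 3, and was below all 3 GC libraries. Without Combination replicate 1 the calls differed, since Lum (-4.01, limma adjusted p = 0.0367) and Col3a1 (-3.39, limma adjusted p = 0.0307) then passed.

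Other matrix lists followed. Of 18 collagens 17 were negative with a median of -1.53, and without Combination replicate 2 the median was -0.50. Col15a1, a basement membrane collagen, was 9.98 to 27.8 FPKM in Control, 58.8 to 68.8 under GC, 28.03 to 55.6 under ICB, and 25.04, 8.59 and 36.9 in Combination (-2.86 ± 0.70, limma adjusted p = 0.325). The exception was Col18a1, the collagen of the endostatin fragment, at 1.59. All 19 proteoglycans and glycoproteins and all 20 matrix proteases and inhibitors were negative, with medians of -1.23 and -1.39. Cthrc1, a secreted glycoprotein of activated fibroblasts, was 81.8 to 143.1 FPKM in GC and 45.1, 6.75 and 44.8 in Combination (-3.75 ± 1.12, limma adjusted p = 0.446). Among 13 Wnt signalling genes, Wnt4 and the secreted inhibitors Sfrp1 (-3.08 ± 1.01) and Dkk3 (-2.68 ± 0.70) were below at unadjusted p under 0.05, and the list median was -0.46. TGF-beta signalling genes had a median of -0.61 with 17 of 18 negative, and none was below at unadjusted p under 0.05.

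Myeloid and chemokine genes formed the second set below the sum. All 12 tested neutrophil genes (of 16) were negative with a median of -2.01, and 3 (25%) were below at unadjusted p under 0.05 against 5.3% of all tested genes. The list averaged 5.01 on log2(FPKM + 1) in ICB replicate 3 and at most 3.14 in any other library, and without ICB replicate 3 its median was -1.39. Csf3r, the receptor for the neutrophil growth factor G-CSF, was 0.388, 1.62 and 1.65 FPKM in Control, 2.89, 5.45 and 2.62 in GC, 2.28, 2.93 and 6.76 in ICB, and 1.20, 0.919 and 1.56 in Combination (-2.15 ± 0.56, limma adjusted p = 0.334). Il1r2, the decoy receptor for interleukin-1, was 2.98 to 20.6 FPKM in Control, 5.01 to 5.69 under GC, 6.70 to 16.9 under ICB, and 1.66, 0.316 and 2.41 in Combination (-1.91 ± 0.79, limma adjusted p = 0.595). Both were lower in every Combination library than in any library given 1 treatment. For S100a9, a calgranulin subunit, the interaction of -2.46 ± 1.19 came with 400.1 FPKM in ICB replicate 3 against 8.998 to 59.7 in the other 11 libraries.

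Of 20 chemokines 17 were negative with a median of -1.70, and 8 (40%) were below at unadjusted p under 0.05 against 5.3% of all tested genes. Cxcl14, a chemokine of fibroblasts and epithelium, was 29.8 to 50.7 FPKM in Control, 53.9 to 182.3 under GC, 54.9 to 119.6 under ICB, and 33.3, 7.22 and 73.2 in Combination (-3.09 ± 0.99, limma adjusted p = 0.476). Cxcl2, which attracts neutrophils through CXCR2, was 3.70 to 22.2 FPKM in Control, 3.81 to 15.8 under GC, 18.4 to 30.8 under ICB, and 0.856, 0.566 and 4.13 in Combination (-2.86 ± 0.94, limma adjusted p = 0.476). For Cxcl2 the step from ICB to Combination passed its own test (-3.22, limma adjusted p = 0.03), as it did downward for 0.188% and upward for 2.05% of tested genes. The macrophage list had a median of -1.30 with 16 of 18 negative, and C1qa, a complement subunit made by tissue macrophages, was 459.0, 930.8 and 622.8 FPKM in GC, 231.2 to 358.6 under ICB, and 502.3, 136.1 and 201.9 in Combination (-2.21 ± 0.93, limma adjusted p = 0.605). Combination replicate 1 lay within the GC range for C1qa and replicates 2 and 3 below both single treatments.

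All 8 genes of MHC class II presentation were negative with a median of -1.42. The median differences from Control were 1.51 for GC, 1.13 for ICB and 1.27 for Combination. The median difference of Combination from Control was also above 0 for neutrophils (0.20), chemokines (0.11), macrophages (0.25) and dendritic cells (0.60). Cd74, the invariant chain, was 11.5, 134.2 and 56.5 FPKM in Control, 117.4 to 317.8 under GC, 94.7 to 279.6 under ICB, and 128.2, 241.6 and 191.0 in Combination (-1.73 ± 1.06, limma adjusted p = 0.668). All 4 groups overlapped. Irf8, a transcription factor of dendritic cells and monocytes, was 18.5 to 26.2 FPKM in GC and 16.7, 4.30 and 10.1 in Combination (-1.73 ± 0.59, limma adjusted p = 0.478).

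Cd274, the PD-L1 gene (chromosome 19, 29367455 to 29388095), was 7.28, 5.98 and 7.55 FPKM in Control, 10.3, 13.0 and 12.2 in GC, and 8.85, 10.9 and 12.7 in ICB. In Combination it was 5.55, 1.72 and 6.23 FPKM. Every library given 1 treatment was above every Control library, and every Combination library was below all 6 of them. The interaction was -1.91 ± 0.47 (SE, n = 3 per group, limma adjusted p = 0.325), with 18.0 FPKM expected and 4.50 ± 2.43 (SD, n = 3) measured, and without Combination replicate 1 it was -2.10 (limma adjusted p = 0.0264). The hepatocyte share was highest, 20.7%, in the library with the lowest Cd274. When the hepatocyte list mean entered the fit, the interaction of Cd274 was -1.94 (limma adjusted p = 0.0488), and with the 3 tissue list means it was -1.95 (limma adjusted p = 0.129). Of 13 checkpoint ligand genes 10 were negative, where 68.2% of all tested genes were, and the list median was -0.83. Ceacam1, an adhesion ligand of TIM-3 that hepatocytes also express, went the other way at 12.8, 34.5 and 11.6 FPKM in Combination and at most 2.76 elsewhere (2.42 ± 0.61, limma adjusted p = 0.325).

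The type I interferon list averaged higher in every GC and Combination library than in any Control or ICB library. The type I interferon list had median differences from Control of 2.04 for GC, 0.27 for ICB and 1.33 for Combination, and a median interaction of -0.85 with 19 of 22 negative and none below at unadjusted p under 0.05. By library the list averaged 2.52, 4.10 and 2.81 on log2(FPKM + 1) in GC replicates 1, 2 and 3 and 3.08, 2.82 and 2.25 in Combination, so GC replicate 2 alone was above every Combination library. Isg15, a ubiquitin-like protein made on interferon signalling, was 2.64 to 5.18 FPKM in Control, 26.4, 70.2 and 34.6 in GC, 3.74 to 6.86 under ICB, and 40.1, 14.5 and 9.80 in Combination (-1.49 ± 0.69, limma adjusted p = 0.609). Ifit1, which binds viral RNA, was at most 0.831 FPKM in Control and ICB, 3.85 to 11.4 under GC, and 4.15, 2.65 and 1.398 in Combination (-1.24 ± 0.58, limma adjusted p = 0.609). In both genes Combination lay above ICB and overlapped GC. Within the interferon gamma list, with a median of -0.39, Socs1, a feedback inhibitor of cytokine receptors, had the second smallest p after Cd274 (-1.35 ± 0.61, limma adjusted p = 0.609). MHC class I presentation had a median of -0.27, close to that of all genes, and 0.07 with TMM scaling.

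T cell and cytotoxic genes were mostly under 1 FPKM on average, with few members tested. The 6 tested T cell genes (of 18) had a median of -0.82. Lat, a scaffold for T cell receptor signalling, was 2.46 to 3.34 FPKM in GC, 1.58 to 4.45 under ICB and 1.46, 1.04 and 4.47 in Combination (-1.68 ± 0.57, limma adjusted p = 0.482), and Cd3d, a receptor subunit, did not exceed 4.55 FPKM in any library (-1.08 ± 0.75, limma adjusted p = 0.691). Gzma, a granzyme of killer lymphocytes, was 31.5, 3.30 and 2.20 FPKM in Combination, 2.97 in GC replicate 2, 0.421 in ICB replicate 3 and 0 in the other 7 libraries (2.10 ± 1.11, limma adjusted p = 0.636). Its highest value is in the intestine-rich library, and without that library Gzma had too low a mean to be tested. Ccl5, a T cell chemokine, was 6.42, 28.03 and 15.5 FPKM in GC, 3.2 to 11.96 under ICB, and 17.6, 5.82 and 10.8 in Combination (-1.76 ± 0.80, limma adjusted p = 0.609).

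No gene of the p53 or mitotic lists passed even before adjustment. The 21 p53 targets had a median of -0.47 (-0.15 with TMM scaling) and none at unadjusted p under 0.05 in either direction. Cdkn1a, the p21 cell cycle inhibitor, was 109.99, 37.9 and 34.7 FPKM in Control, 71.8 to 100.04 under GC, 58.2 to 76.9 under ICB, and 59.0, 39.6 and 50.2 in Combination (-1.06 ± 0.55, limma adjusted p = 0.631). Combination was below GC without overlap, and the Control libraries spanned the whole range. Ei24, a p53 target of the endoplasmic reticulum, had 0.93 ± 0.50 (limma adjusted p = 0.638). The 22 mitotic genes had a median of -0.46, the 27 DNA repair genes one of -0.21, and the 14 gemcitabine handling genes one of -0.24. Without Combination replicate 2 these 3 medians were 0.14, 0.13 and 0.07, and without Combination replicate 1 they were -1.12, -0.45 and -0.81. That of DNA repair was 0.08 with quantile scaling, and that of mitosis was 0.23 without Control replicate 1. On plain FPKM 16 of the 22 mitotic genes lay above the expectation, so no direction is given for these lists. Mki67, a proliferation marker, was 1.85, 16.5 and 20.6 FPKM in Control, 9.11 to 15.8 under GC, 5.14 to 13.1 under ICB, and 15.6, 2.65 and 6.49 in Combination, an interaction of -0.46 ± 1.03 (limma adjusted p = 0.891) whose sign was positive on plain FPKM.

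Tumour epithelium and the ribosome showed no call. The biliary and tumour epithelium list had a median of 0.46, and -0.28 without Combination replicate 1, Control replicate 2 and GC replicate 2. Krt19 had 0.46 ± 1.64 (limma adjusted p = 0.929) and Sox9 -1.01 ± 0.77 (limma adjusted p = 0.704), the latter at 35.2 to 91.9 FPKM in the other groups and 42.5, 7.56 and 37.7 in Combination. All 23 ribosomal protein genes of the list were negative with a median of -0.75, which was -0.21 without the liver-rich Combination replicate 2. Rps27, which is not in the list, had 9.74 ± 2.56 (limma adjusted p = 0.35), but its reads cannot be told apart from those of Rps27rt. Rps14, of the small subunit, was 648.9 FPKM in that library and 1956 to 6702 in the other 11 (-1.38 ± 0.74, limma adjusted p = 0.638).

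**Figure D4:**
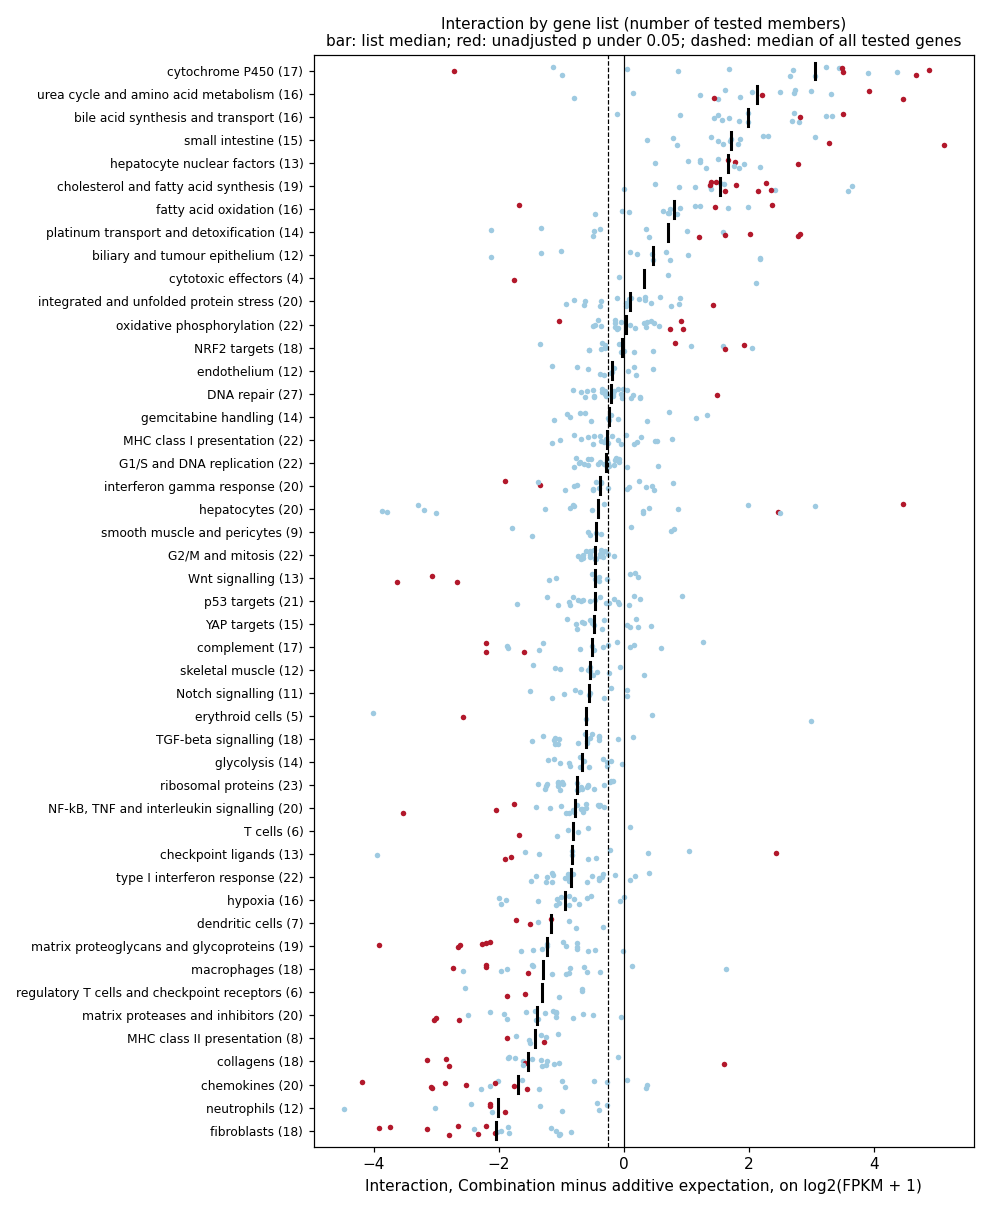
Interaction on log2(FPKM + 1) of every tested member (points; red, unadjusted p under 0.05) of 47 gene lists with at least 3 tested members, ordered by list median (black bar); the solid vertical line is 0 and the dashed line the median of all tested genes, -0.26. Medians run from -2.05 for fibroblasts to 3.06 for cytochrome P450, and the hepatocyte list spreads to both sides.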

How the data were processed

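Total RNA of 12 tumour samples was made into stranded libraries, per the labels' protocols. FPKM values for 24421 symbols were used as the authors deposited them. Reads were handled with cutadapt, FastQC, HISAT2, HTSeq and SAMtools on mm10, per the submitters' processing notes; the step that made FPKM and the strand setting of counting are not given in the sources used here. Samples were grouped by title (n = 3 each).

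All 12 libraries were fitted together as log2(FPKM + 1) with limma 3.58.1 in R 4.3.3, by group means with an intensity trend (8 residual degrees of freedom), for genes averaging 1 FPKM or more. P-values were adjusted by Benjamini-Hochberg over 12765 genes, with a threshold of 0.05. The code was tested on simulated data. Depth is unknown, since low values gave no whole-read steps.

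The genes and lists were chosen with earlier results of these data known. Of 852 list entries in 49 lists, 846 were found. Named genes were the called ones with a group mean of at least 5 FPKM or, with under 5 called in a direction, the 10 of smallest p; 2 members of smallest p in 12 set lists and in the 4 lists of highest and the 4 of lowest median; and 8 set genes. Others were chosen after their values were seen. Gene model and clone names were passed over. Promoters are from RefSeq (GRCm38.p6), in which 43 of 56 named genes matched. Same-numbered replicates of different groups had correlations of deviations from -0.236 to 0.416 over 18 pairs, so the numbers were not taken to pair samples. Alternatives were other pseudocounts, floors, scalings, weights, covariates, a replicate block and left-out libraries.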

Additional observations from a re-analysis of the deposited data

Results flagged for a closer look

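The response to GC differed between tumours with and without ICB, by a test of that difference itself, for 2 genes, both of them higher with the 2 treatments together. For Abcg5 the GC step was 0.47 without ICB and 4.09 with it, an interaction of 3.61 ± 0.41 (limma adjusted p = 0.024). It passed the threshold in 3 of 12 fits that left out 1 library, with adjusted p up to 0.134. For Cyp2b10 the GC step was 0.04 without ICB and 4.92 with it, an interaction of 4.88 ± 0.60 (limma adjusted p = 0.0278). This gene likewise passed in 3 of 12 such fits, with adjusted p up to 0.134. Abcg5 and Cyp2b10 passed the floor of 1 FPKM only through Combination, being at most 0.995 and 0.081 FPKM in the other groups. The Combination libraries were also the richest in hepatocyte or intestinal transcripts, and the part of tissue content was not tested.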

How the results depend on the processing

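Counts above and below the additive expectation (2 and 0 as reported) were 0 and 0 with a pseudocount of 0.1, 4 and 1 with 16, 0 and 0 with a mean of at least 10 FPKM, 7 and 0 with no floor, 6 and 0 with quantile scaling, 8 and 1 without the intensity trend, 190 and 100 with the hepatocyte list mean in the fit, 402 and 93 with 3 tissue list means, 0 and 0 without Control replicate 2 and GC replicate 2 (the muscle-rich pair), and 314 and 54 without that pair and Combination replicate 1, an alternative chosen after seeing the data. Sample weights gave 1887 and 2143, from a weight of 161.8 for Combination replicate 3 in a fit that did not converge. Leaving out 1 library gave 0 to 592 above and 0 to 273 below. With the replicate number as a replicate block, 0 were above and 0 below (lowest adjusted p 0.0872); 18 same-numbered pairs had a median correlation of 0.0346. The cause of each change was not tested.

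Signs changed for 6 named genes, none of them called. Sample weights gave 0.0396 for Tpx2, 0.32 for Ttk, 0.41 for Mki67 and -2.61 for Krt19. The 3 tissue covariates gave -0.39 for Epcam and -1.66 for Krt19. Krt19 was -1.24 with a pseudocount of 0.1 and -0.32 without the muscle-rich pair and Combination replicate 1. Alb was -0.60 with quantile scaling; it was -0.66 without the muscle-rich pair. Over fits without 1 library, Tpx2 ran from -1.39 to 0.018, Ttk from -1.15 to 0.11, Mki67 from -1.01 to 0.47, Krt19 from -0.96 to 1.18 and Alb from -1.21 to 2.64.

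List medians moved as follows. With a pseudocount of 16 they were -0.21 for type I interferon response, -0.13 for T cells, -0.51 for neutrophils, -0.20 for checkpoint ligands, -0.11 for p53 targets, -1.12 for fibroblasts, -0.62 for chemokines and 1.55 for cytochrome P450. A pseudocount of 0.1 gave -1.15 for checkpoint ligands and -2.76 for fibroblasts, and the higher floor -0.45 for checkpoint ligands and -1.01 for biliary and tumour epithelium. TMM scaling gave 0.0651 for MHC class I presentation and -0.15 for p53 targets, and quantile scaling -0.26 for T cells and -0.21 for p53 targets. Sample weights gave -0.60 for MHC class I presentation, -1.33 for T cells, -0.47 for biliary and tumour epithelium, -0.62 for collagens and -0.12 for small intestine. The 3 tissue covariates gave -0.97 for biliary and tumour epithelium, -0.14 for small intestine and 3.44 for the urea cycle. Without the muscle-rich pair the median for cytotoxic effectors was 1.24. Without the pair and Combination replicate 1 it was -1.925 for cytotoxic effectors, -1.21 for checkpoint ligands, -0.28 for biliary and tumour epithelium, -0.31 for small intestine, 3.38 for bile acids and 3.79 for the urea cycle. Over fits without 1 library the ranges were -1.21 to -0.33 for T cells, -2.11 to 1.05 for cytotoxic effectors, -1.08 to -0.32 for checkpoint ligands, -0.67 to -0.22 for p53 targets, -1.19 to -0.21 for ribosomal proteins, -2.04 to -0.96 for chemokines, -2.00 to -0.50 for collagens, -0.23 to 2.75 for small intestine, 1.55 to 3.71 for bile acids, 1.06 to 3.999 for the urea cycle and -1.43 to 1.66 for hepatocytes. Other values of named genes and lists kept their direction or moved within their spread. Counted over pairs of a named gene and an alternative, 1160 pairs stayed on their side of the threshold. In 161 pairs the gene passed it only under the alternative, in 26 it no longer passed and in 22 the sign changed.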
